A study of Mus musculus with 15 samples.

Results

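Socs1, Socs2, Socs3 and Cish, which encode suppressors of cytokine signalling, and Stat3, Stat4, Stat5a, Stat5b and Stat6, which encode cytokine-activated transcription factors, were followed in mouse dendritic cells (DCs) and monocytes. These 9 genes were chosen by name, with earlier results of these data known, and each symbol matched 1 of the 38924 gene identifiers counted. The shares of all genes called stand beside their counts as a background, not as a test of the set. RNA was sequenced from 15 libraries of sorted cells of C57BL/6 mice aged 6 to 8 weeks by the labels, with no treatment named, 3 libraries for each of 5 subtypes. Splenic CD8+ DCs and lung-draining lymph node (LN) CD103+ DCs stood for the DC1 lineage, splenic CD4+ DCs and LN CD11b+ DCs for the DC2 lineage, and splenic Ly6C+ cells for monocytes. The series surveyed phagocyte subtypes of both organs, and the comparisons here ask how the 9 genes differ by organ, by DC lineage and between monocytes and DCs. The cells of a library were pooled from 5 mice after collagenase D digestion and sorted by surface proteins, LN DCs with a gate on high MHC II, and the LN and splenic cells came from different cohorts. The paper calls these LN DCs migratory and describes the spleen as a source of resident DCs only. Organ, cohort, gate and migratory or resident state therefore cannot be told apart, and a difference by organ below stands for all of them. Words such as rose or fell compare LN with splenic cells and describe no change within a population. The pools are the replicates, so every p measures the spread between pools, and a 2-sided exact permutation test of 3 against 3 libraries cannot go below 0.1, which is why a model over all genes was used. Libraries held 4531243 to 10233914 counts on genes, with medians of 7523451 in monocytes, 7657936 and 7331110 in the CD103+ and CD11b+ DCs of the LN and 7616834 and 6416858 in the CD8+ and CD4+ DCs of the spleen.

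Many cytokines signal through receptors that carry JAK kinases, which phosphorylate STAT proteins so that these pair, enter the nucleus and bind DNA. SOCS genes are among the first that STATs switch on, and their proteins bind the receptor or the JAK and lower the signal, which makes a feedback loop. In DCs and monocytes, STAT5 is best known for signals of GM-CSF and related cytokines, STAT3 for IL-6, IL-10, G-CSF and FLT3 ligand, STAT4 for IL-12 and type I interferon, and STAT6 for IL-4 and IL-13.

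The sorted subtypes carried the leading markers of their labels, though not every marker listed. Xcr1, a DC1 chemokine receptor, averaged 716 ± 202 CPM (counts scaled to a common library size with TMM factors; mean ± SD, n = 3 here and below) in splenic CD8+ DCs and 55.2 ± 36.1 in LN CD103+ DCs, against at most 4.53 in the other 3 subtypes. Sirpa, which marks DC2 and monocytes, averaged 1506 ± 476 in splenic CD4+ DCs, 613 ± 16.2 in LN CD11b+ DCs and 1311 ± 97.8 in monocytes. Its levels in splenic CD8+ and LN CD103+ DCs were 76.1 ± 37.9 and 12.4 ± 0.906. Ccr7, the receptor that guides DCs to lymph nodes, stood at 4028 ± 424 in LN CD103+ DCs and 2319 ± 164 in LN CD11b+ DCs, against 166 ± 65.3 or less in the splenic subtypes. F13a1, a monocyte gene, averaged 1780.4 ± 182 in monocytes and 14.5 ± 7.53 or less in every DC subtype. The DC1 list of 9 genes summed to 6937 ± 1674 in splenic CD8+ DCs, but in LN CD103+ DCs its 1057 ± 233 was close to the 915 ± 151 of splenic CD4+ DCs, where Wdfy4 was higher (758 against 119) and Tlr3 similar (9.14 against 7.87). The DC2 list summed to 2537 ± 549.9 and 989 ± 70.4 in splenic CD4+ and LN CD11b+ DCs and to 115 ± 16.9 in LN CD103+ DCs, where its most abundant gene, Esam, was at 53.3 against 40.0 in LN CD11b+ DCs, but also to 2583 ± 148 in monocytes. The general DC list of 7 genes fell from 22341 ± 2226 in splenic CD8+ to 4464 ± 1067 in LN CD103+ DCs and from 19371 ± 4906 in splenic CD4+ to 9808 ± 2352 in LN CD11b+ DCs (1720 ± 200 in monocytes). Its MHC II gene H2-Ab1 stood at 1766 ± 1248 in LN CD103+ DCs, near the 1457 ± 158 of monocytes and below the 19138 ± 1938 of splenic CD8+ DCs, and Itgax (101 against 541) and Kit (94.4 against 400) were lower as well, while Flt3 (1362 against 1100) and Zbtb46 (428 against 339) were not.

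Of the 9 genes, 3 lie side by side in the mouse genome (mm10) and the others apart. Stat5b (ENSMUSG00000020919, chr11:100780731-100850724, minus strand), Stat5a (ENSMUSG00000004043, chr11:100859351-100885169, plus strand) and Stat3 (ENSMUSG00000004040, chr11:100885098-100939540, minus strand) are neighbours, and the ends of Stat3 and Stat5a share 72 exon bases, 0.760% and 1.01% of their lengths. Stat4 (ENSMUSG00000062939) is at chr1:51987148-52107188 and Stat6 (ENSMUSG00000002147) at chr10:127642986-127660957, both on the plus strand. Socs1 (ENSMUSG00000038037) is at chr16:10783808-10785536, Socs2 (ENSMUSG00000020027) at chr10:95385362-95417180 and Socs3 (ENSMUSG00000053113) at chr11:117966079-117970047, all on the minus strand. Cish (ENSMUSG00000032578) is at chr9:107296026-107302784 on the plus strand.

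Because SOCS genes are classical STAT targets and several members moved together by organ, the promoters were searched for the paired half-sites that STATs bind, TTCNNNGAA and the wider TTCNNNNGAA, each of which reads the same on both strands. RefSeq (GRCm38.p6) gave 11 promoters, from 250 bases before to 50 bases after a start site, for 8 of the 9 genes, all but Socs2. TTCNNNGAA was found in 2 of the 11, those of Cish and Socs3, and TTCNNNNGAA in 0 of them. The matches are in capitals in the Cish promoter (chr9:107296409-107296708, plus strand) and the Socs3 promoter (chr11:117969317-117969616, minus strand), 5′ to 3′:
Cish: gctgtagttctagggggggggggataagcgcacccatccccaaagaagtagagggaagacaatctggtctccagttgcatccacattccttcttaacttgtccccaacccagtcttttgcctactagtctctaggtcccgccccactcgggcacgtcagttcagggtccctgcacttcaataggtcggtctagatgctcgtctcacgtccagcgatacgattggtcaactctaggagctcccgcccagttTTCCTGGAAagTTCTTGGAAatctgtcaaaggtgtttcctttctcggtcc
Socs3: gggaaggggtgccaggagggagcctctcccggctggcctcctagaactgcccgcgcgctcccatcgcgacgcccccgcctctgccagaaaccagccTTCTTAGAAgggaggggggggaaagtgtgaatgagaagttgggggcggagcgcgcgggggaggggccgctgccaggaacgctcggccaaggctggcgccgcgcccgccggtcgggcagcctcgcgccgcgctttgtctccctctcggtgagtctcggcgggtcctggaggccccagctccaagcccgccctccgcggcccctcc
Cish held 2 matches, TTCCTGGAA from base 0 and TTCTTGGAA from base 11 relative to the start site. Socs3 held TTCTTAGAA from base -154. Of all 32851 promoters in the table, 8.30% held TTCNNNGAA, 6.95% held TTCNNNNGAA, and 0.457% (150 promoters) held TTCNNNGAA at 2 or more places. A match is a description of letters, not a site that a factor was shown to bind here.

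Socs2, a suppressor of growth hormone and other STAT5 signals, had the widest range of the 9 genes. Its level was 1161, 1232 and 728 CPM in the LN CD103+ libraries and 1099, 1467 and 657 in the LN CD11b+ libraries. In the spleen it was 13.5, 14 and 17.3 in CD8+ DCs and 18.6, 49.4 and 30.6 in CD4+ DCs, and in monocytes 0, 0 and 0.263. Thus all 6 LN libraries stood above all splenic DC libraries, and the monocyte libraries held 2 counts of Socs2 in all. The count ratio of LN CD103+ DCs to monocytes was 11012 (95% interval 3048 to 90936), that of LN CD11b+ DCs 12529.6 (3468 to 103467), that of splenic CD4+ DCs 367 (101 to 3039) and that of splenic CD8+ DCs 179.9 (49.4 to 1491). These intervals come from counts summed over the libraries of a subtype, so they cover counting error only and not the spread between pools. The reads carry no molecular identifiers, so copies of a molecule count as separate reads and the intervals may be too narrow.

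Socs1, which blocks JAK kinases directly and restrains interferon signals, was also higher in the LN subtypes. It stood at 18.6, 18.4 and 30.8 CPM in LN CD103+ DCs, 15.7, 15.5 and 21.9 in LN CD11b+ DCs, 6.10, 3.64 and 7.56 in splenic CD8+ DCs, 1.29, 1.88 and 1.33 in splenic CD4+ DCs and 0.787, 1.94 and 2.89 in monocytes. The LN ranges overlapped each other and no splenic range, while splenic CD4+ DCs and monocytes overlapped at the low end. Cish, a suppressor induced by STAT5, was low, at 7.81, 5.15 and 18.9 CPM in LN CD103+ DCs, 7.85, 18.5 and 35.8 in LN CD11b+ DCs, 0, 0.405 and 1.49 in splenic CD8+ DCs, 1.29, 2.56 and 0.166 in splenic CD4+ DCs and 4.13, 4.28 and 3.29 in monocytes. Every LN library exceeded every splenic one, with 214 and 361 counts summed over the LN CD103+ and LN CD11b+ libraries against 16 and 26 over splenic CD8+ and CD4+ DCs. Of the Cish exon bases, 11.5% overlap Gm17040 and Gm17041 on the other strand, and reads were counted without regard to strand. These genes held 16 and 33 counts in LN CD103+ DCs and 14 and 16 in LN CD11b+ DCs, against 0 and 1 in splenic CD8+ and 4 and 0 in splenic CD4+ DCs, and so were higher in the LN with Cish.

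Socs3, which binds receptors of the IL-6 and G-CSF type, followed a different order. It was 191, 160.0 and 149.6 CPM in monocytes, 101, 81.2 and 225 in LN CD11b+ DCs, 19.8, 16.7 and 26.5 in LN CD103+ DCs, 10.4, 18.9 and 26.3 in splenic CD4+ DCs and 5.98, 7.29 and 8.47 in splenic CD8+ DCs. Monocytes and LN CD11b+ DCs overlapped at the top, and LN CD103+ DCs and splenic CD4+ DCs overlapped below them.

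**Figure D1:**
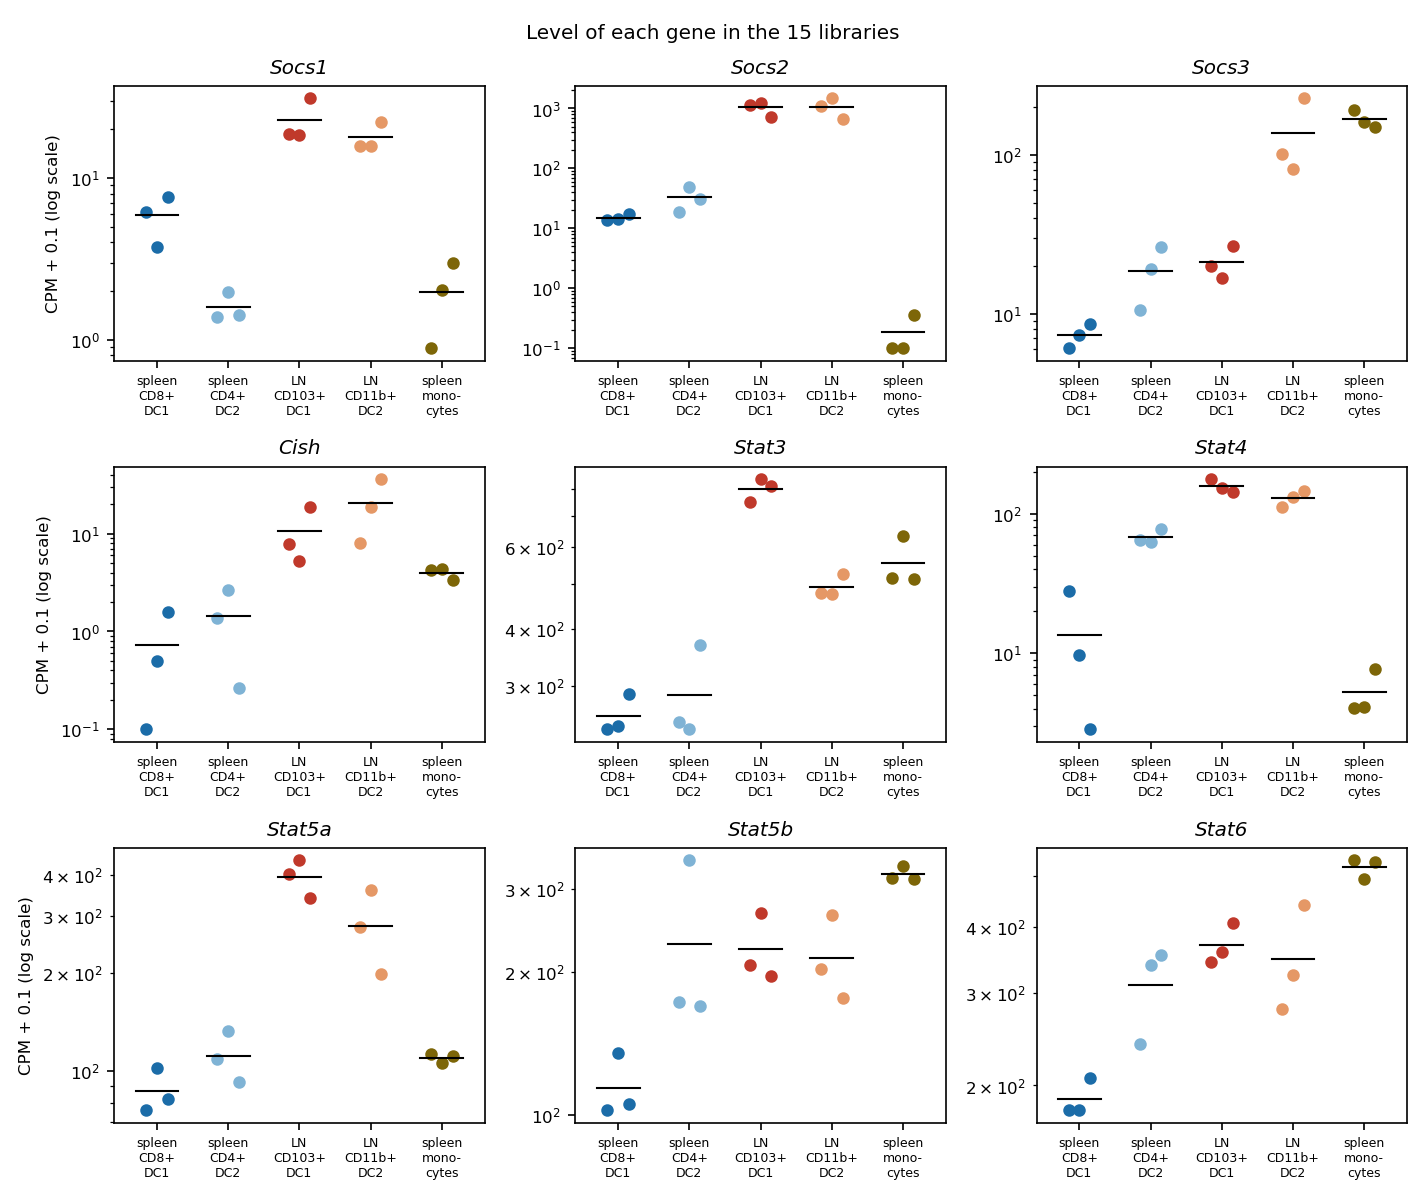
CPM of the 9 genes in each of the 15 libraries, on a log axis after adding 0.1, with a bar at each subtype mean. Socs1, Socs2 and Cish are highest in the 6 LN libraries, Socs3 in monocytes and LN CD11b+ DCs, and Stat4 is lowest in monocytes and splenic CD8+ DCs.

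Among the STAT genes, Stat4 and Stat5a had the largest ranges as ratios of highest to lowest. Stat4 was 176, 153 and 142 CPM in LN CD103+ DCs, 111, 132 and 145 in LN CD11b+ DCs, 64.7, 62.7 and 77.7 in splenic CD4+ DCs, 27.9, 9.58 and 2.75 in splenic CD8+ DCs and 3.93, 3.98 and 7.63 in monocytes. As a ratio the splenic CD8+ libraries spread most widely, and their lowest value fell under every monocyte library. Stat5a, a main carrier of GM-CSF signals, was 402, 443 and 339.8 in LN CD103+ DCs, 277, 360.3 and 198 in LN CD11b+ DCs, 109, 133 and 92.2 in splenic CD4+ DCs, 75.8, 102 and 82.3 in splenic CD8+ DCs and 113, 106 and 111 in monocytes. All 6 LN libraries lay above the 9 others.

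Stat3 was 752, 839 and 812 CPM in LN CD103+ DCs, 477, 474 and 525 in LN CD11b+ DCs, 515, 632 and 511 in monocytes, 251, 243 and 368 in splenic CD4+ DCs and 242, 247 and 288 in splenic CD8+ DCs. LN CD103+ DCs stood alone at the top and the splenic DC subtypes overlapped at the bottom. Stat5b, the close relative of Stat5a, was 317, 336 and 315 in monocytes, 173, 345 and 169.8 in splenic CD4+ DCs, 207, 266 and 197 in LN CD103+ DCs, 203, 264 and 176 in LN CD11b+ DCs and 102, 135 and 105 in splenic CD8+ DCs. Replicate 2 of splenic CD4+ DCs exceeded the monocyte libraries, and splenic CD8+ DCs were below all other subtypes. Stat6 was 534, 493 and 531 in monocytes, 343, 358 and 406 in LN CD103+ DCs, 279, 324 and 439 in LN CD11b+ DCs, 240.1, 338 and 353 in splenic CD4+ DCs and 179, 179.6 and 206 in splenic CD8+ DCs. Here too monocytes were highest and splenic CD8+ DCs lowest, with the other 3 subtypes overlapping.

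All 9 genes passed the filter on low counts (more than 1 CPM in at least 3 libraries), and 9 of 9 differed over the 5 subtypes at an adjusted p under 0.05, called below, as did 73.5% of the 14456 genes tested. Of the 36 pairs of neighbours in the genes' own orders of mean level, 15 differed, against 16.2% of such pairs over all genes. For Socs1 the order was LN CD103+ and LN CD11b+ DCs (not separated, adjusted p = 0.591), then splenic CD8+ DCs, then monocytes and splenic CD4+ DCs (not separated, 0.525). For Socs2 the LN subtypes (not separated, 0.954) were followed by splenic CD4+ DCs, splenic CD8+ DCs and monocytes, each step called. For Socs3 monocytes and LN CD11b+ DCs (not separated, 0.473) came before LN CD103+ and splenic CD4+ DCs (not separated, 0.697) and splenic CD8+ DCs. For Cish no neighbours were separated, from LN CD11b+ DCs through LN CD103+ DCs (0.386), monocytes (0.0867) and splenic CD4+ DCs (0.116) to splenic CD8+ DCs (0.446), although its ends differed.

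For Stat3 the order was LN CD103+ DCs, then monocytes (adjusted p = 0.0218) and LN CD11b+ DCs (not separated, 0.481), then splenic CD4+ and CD8+ DCs (not separated, 0.600). Stat4 ran from LN CD103+ through LN CD11b+ (0.754) to splenic CD4+ DCs (0.119) without a called step, then fell to splenic CD8+ DCs and to monocytes (0.0362), whose ranges overlap. For Stat5a the LN subtypes (not separated, 0.141) preceded splenic CD4+ DCs, monocytes (0.963) and splenic CD8+ DCs (0.216). Stat5b separated splenic CD8+ DCs alone at the low end, with 0.108, 0.924 and 0.920 between the 4 subtypes above. For Stat6 monocytes led (0.0419), LN CD103+, LN CD11b+ and splenic CD4+ DCs were not separated (0.837 and 0.576), and splenic CD8+ DCs came last.

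In the DC1 lineage, LN CD103+ DCs exceeded splenic CD8+ DCs in all 9 genes, the suppressors and the STATs alike. Of the 9, 9 were called and 9 were higher in the LN, where 45.6% of all genes were called in either direction and 23.8% were higher. The median log2 difference of the 9 was 1.96, beside 0.00 over all genes tested. Socs2, at 1040.2 ± 273 CPM in the LN and 14.9 ± 2.05 in the spleen, had a 69.6-fold ratio of means and a log2 difference of 6.12 ± 0.41 (SE; adjusted p = 1.40e-09). Stat4 rose 11.7-fold, from 13.4 ± 13 to 157 ± 17.2 (log2 3.55 ± 0.48, adjusted p = 8.10e-06), and Stat5a 4.56-fold, from 86.7 ± 13.6 to 395 ± 51.8 (2.19 ± 0.22, 2.25e-07). For each of these genes the 3 LN libraries all exceeded the 3 splenic ones. Socs1 rose 3.92-fold (1.96 ± 0.37, 0.000245), Stat3 3.09-fold (1.63 ± 0.19, 1.36e-06) and Socs3 2.90-fold (1.53 ± 0.37, 0.00220). Stat5b and Stat6 moved least, each 1.96-fold (0.97 ± 0.25, 0.00372 and 0.97 ± 0.20, 0.000549), again with no overlap between the organs. Cish, with 0, 3 and 13 counts in the splenic libraries, had a count ratio of 13 (95% interval 7.80 to 23.1, counting error only) and an adjusted p of 0.000586. Its fitted log2 difference of 3.99 ± 0.82 became 5.65 without splenic CD8+ replicate 3 and 3.30 without LN CD103+ replicate 3, called each time. Signs of library quality also separated these 6 libraries. Unique reads in no exon were 24.7, 27.1 and 30.7% in the LN and 23.7, 20.8 and 17.6% in the spleen, the share of counts in the top 10 genes 12.8, 13.6 and 13.8% and 17.4, 19.1 and 16.9%, the mitochondrial share 0.964, 1.02 and 1.316% and 1.72, 1.319 and 1.503%, and genes detected 16897, 17098 and 17229 and 16438, 16124 and 16426. Their part in the differences was not tested. Fewer cells of a type and less RNA per cell cannot be told apart in such bulk libraries.

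In the DC2 lineage, the 4 suppressors rose in the LN with Stat3 and Stat5a, while Stat4, Stat5b and Stat6 were not called. Of the 9, 6 were called and 6 were higher in LN CD11b+ than in splenic CD4+ DCs, where 33.1% of all genes were called in either direction and 19.3% were higher. The median log2 difference of the 9 was 1.32, beside 0.05 over all genes tested. Socs2 rose 32.7-fold, from 32.9 ± 15.6 to 1074 ± 406 CPM (log2 5.04 ± 0.39, adjusted p = 2.08e-08), and Socs1 11.8-fold, from 1.5 ± 0.327 to 17.7 ± 3.61 (3.55 ± 0.43, 3.54e-06). Socs3 rose 7.33-fold, from 18.6 ± 7.94 to 136 ± 78.0 (2.88 ± 0.36, 5.87e-06). In all of them every LN library stood above every splenic library. Cish had a count ratio of 12.6 (8.47 to 19.6, counting error only) and an adjusted p of 0.000662. Its fitted log2 difference of 3.93 ± 0.78 became 4.69 without splenic CD4+ replicate 2 and 3.29 without LN CD11b+ replicate 3. Stat5a rose 2.50-fold (1.32 ± 0.22, 0.000106) and Stat3 1.71-fold (0.78 ± 0.19, 0.00341), both without overlap. Stat4 had a log2 difference of 0.92 ± 0.44 (adjusted p = 0.119), although its 3 LN libraries exceeded its 3 splenic ones. It was called without splenic CD8+ replicate 1 (0.0234) or replicate 3 (0.0200), libraries outside this comparison that share its estimate of spread, with no filter on low counts (0.00147) and in a fit of these 2 subtypes alone (0.0143). Stat5b, at -0.09 ± 0.25 (0.813), and Stat6, at 0.16 ± 0.20 (0.576), overlapped between the organs. Of the same quality signs, only genes detected separated these libraries, 17693, 17095 and 16980 in the LN and 16229, 15292 and 15961 in the spleen.

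**Figure D2:**
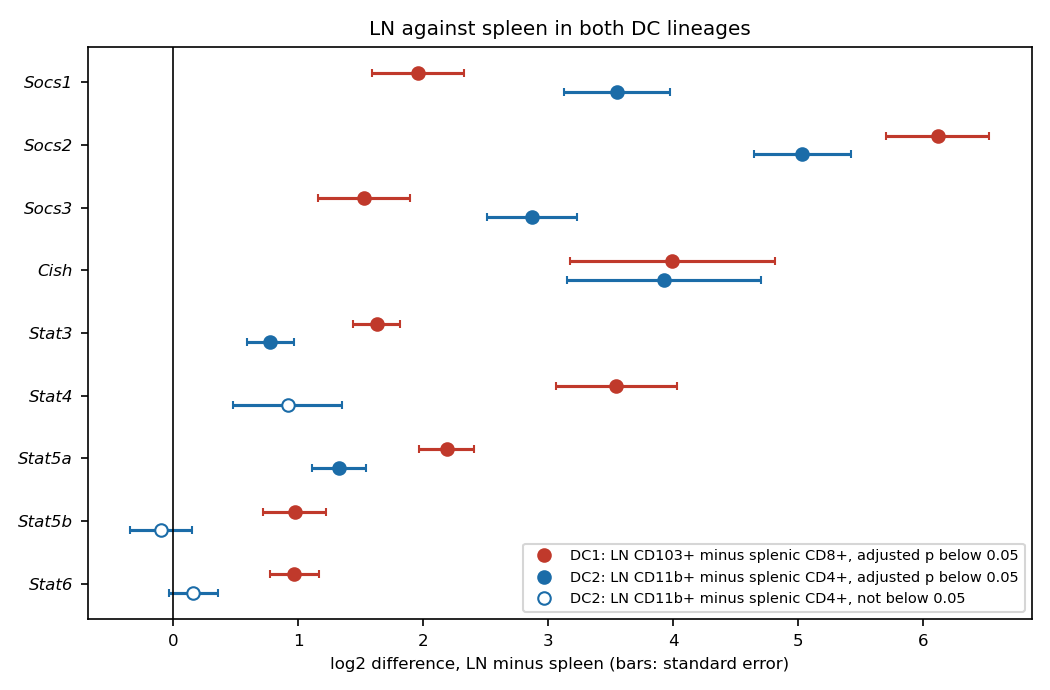
Log2 difference of LN minus spleen for each gene in the DC1 lineage (LN CD103+ against splenic CD8+) and the DC2 lineage (LN CD11b+ against splenic CD4+), with bars of 1 standard error. Socs2 has the largest difference in both lineages, and Stat4 is at 3.55 in DC1 and 0.92 in DC2.

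Whether the organ difference itself differed between the lineages was tested as an interaction, the difference in DC1 minus that in DC2. It was called for Stat4 and Stat3, 2 of the 9 genes, where 11.2% of all genes were called. Stat4 differed by a log2 value of 2.63 ± 0.63 (adjusted p = 0.0102), and Stat3 by 0.85 ± 0.26 (0.0444). For the rest the interaction was not called: Stat5b 1.07 (0.0582), Stat6 0.81 (0.0690), Socs1 -1.59 (0.0718), Stat5a 0.86 (0.0752), Socs3 -1.35 (0.0942), Socs2 1.08 (0.160) and Cish 0.07 (0.989). In this fit, then, the organ differences of Stat5b and Stat6 are not shown to differ between the lineages, but the answer depended on the model. Residuals of same-numbered DC libraries were correlated, and with replicate as a block 7 of the 9 were called, among them Stat5b (0.00908), Stat5a (0.0197), Stat6 (0.0220), Socs1 (0.0346) and Socs3 (0.0392). With separate blocks for each organ, an alternative chosen after seeing the data, 8 were called, Socs2 (0.0173) as well. DESeq2 called Stat5b (0.0207), Stat5a (0.0238) and Stat6 (0.0253) too. With no filter Socs3 (0.00492), Stat5b (0.0151) and Socs2 (0.0172) were gained, in both limma fits Stat5b (0.0387 and 0.0424) and Stat5a (0.0399 and 0.0422), and with RLE scaling Stat5b (0.0468). Over all 14456 genes the main fit called 1620 interactions, the replicate block 2152, separate blocks 3142 and DESeq2 2150. The fit with no filter called 2089 of 23169, the limma fits 1740 and 1452 and RLE scaling 1628. The Stat3 call ended with no filter (0.0763), in both limma fits (0.0873 and 0.0967) and with any 1 of 11 libraries left out (0.0521 to 0.101): splenic CD8+ replicates 1 and 2, splenic CD4+ replicate 3, LN CD103+ replicates 1 to 3, LN CD11b+ replicates 1 and 2 and each monocyte library. Further calls were gained by leaving out 1 library: Socs1 without splenic CD8+ replicate 2 (0.0466), Socs3 without splenic CD4+ replicate 3 (0.0355) or LN CD11b+ replicate 2 (0.0410), Stat5a without the same libraries (0.0436 and 0.0258), Stat5b without splenic CD4+ replicate 1 (0.0317) or 3 (0.0242) or LN CD11b+ replicate 2 (0.0396), and Stat6 without splenic CD4+ replicate 1 (0.0271) or LN CD11b+ replicate 3 (0.0204). Leaving out 1 library also lowered such differences. The ranges were 0.65 to 1.24 for Stat5b (adjusted p up to 0.154), -1.69 to -0.78 for Socs3 (0.257) and 0.67 to 1.37 for Socs2 (0.407).

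In the spleen, CD8+ DCs had more Socs1 than CD4+ DCs and less Socs2, Socs3, Stat4, Stat5b and Stat6. These were 6 called of the 9, 1 higher and 5 lower, where 27.4% of all genes were called. Stat4 was 5.11-fold higher in CD4+ DCs (68.4 ± 8.15 against 13.4 ± 13 CPM, log2 -2.35 ± 0.47 for DC1 minus DC2, adjusted p = 0.000998), with no overlap. In splenic CD8+ replicates 1, 2 and 3 the DC2 marker list summed to 294, 173 and 112 CPM, and Stat4 stood at 27.9, 9.58 and 2.75. The list's sum in splenic CD4+ DCs was 2537 ± 549.9, its most abundant gene in replicate 1 was Sirpa at 118, and Siglech, a plasmacytoid DC gene, was also highest there at 35.5. The part of other cells in the Stat4 value was not tested, and without replicate 1 the log2 difference was -3.49 in the spleen and 4.69 between the organs in DC1, with an interaction of 3.77. The other ends of the ranges with 1 library left out were -1.86, 3.06 and 2.14, and Stat4 was called each time. Other lists were lower in splenic CD8+ than CD4+ DCs as well: macrophage genes at 201 ± 43.8 against 551 ± 34.6 CPM (Vcam1 most abundant in both), Ly6C+ monocyte genes at 312 ± 51.1 against 607 ± 106 (Csf1r at 96.7 against 516) and B cell genes at 37.8 ± 7.99 against 94.3 ± 11. Their part in these differences was not tested. Socs1 was 3.85-fold higher in CD8+ DCs (1.95 ± 0.43, 0.00235). The log2 difference was -1.01 ± 0.25 (0.00568) for Stat5b, -0.72 ± 0.20 (0.0107) for Stat6 and -1.35 ± 0.37 (0.0108) for Socs3, all without overlap. That of Stat5b ran from -1.19 to -0.59 with 1 library left out and stayed called (adjusted p up to 0.0498). The Socs3 call ended without splenic CD4+ replicate 3 (-1.01, 0.0597). Socs2, at -1.13 ± 0.35 (0.0219), lost its call without splenic CD8+ replicate 1 (0.0697) or 2 (0.0534) or splenic CD4+ replicate 2 (-0.71, 0.162). Cish (-1.03, 0.446; -2.69 to -0.26 with 1 library left out), Stat3 (-0.15, 0.600) and Stat5a (-0.36, 0.229) were not called, and Stat5a passed with separate replicate blocks for each organ (0.0439).

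In the LN, the lineages were separated mainly by Socs3. It was 6.47-fold higher in CD11b+ than in CD103+ DCs (136 ± 78.0 against 21 ± 5.0 CPM, log2 -2.69 ± 0.36, adjusted p = 3.76e-05), every CD11b+ library above every CD103+ library. Stat3, whose product drives Socs3 in many cells, went the other way, 1.63-fold higher in CD103+ DCs (801 ± 44.8 against 492 ± 28.1, 0.70 ± 0.19, 0.0167), also without overlap. These were 2 called of the 9, where 12.9% of all genes were called. The Stat3 call ended without LN CD103+ replicate 2 (0.0645) or 3 (0.0503) or LN CD11b+ replicate 1 (0.0579) or 2 (0.0597), and in both fits to log2 TPM (0.0534 and 0.0600). Socs2 differed by -0.05 (0.954), Socs1 by 0.35 (0.591), Cish by -0.96 (0.386; -1.66 to -0.31 with 1 library left out), Stat4 by 0.28 (0.754), Stat5b by 0.06 (0.920) and Stat6 by 0.09 (0.837), and their ranges overlapped. Stat5a, at 0.50 ± 0.21 (0.141), was called with replicate as a block (0.52, 0.0427), with a block for each organ (0.53, 0.00649) and without LN CD11b+ replicate 2 (0.73, 0.0459). The macrophage list (Vcam1, C1q genes and others) also stood higher in LN CD11b+ than in LN CD103+ libraries, 998, 838 and 613 against 197, 206 and 236 CPM, with counts for 8 of its 8 genes in each. So did the Ly6C+ monocyte list, 756, 636 and 640 against 88.9, 60.2 and 73.7, with counts for 9 of 9 genes in each LN CD11b+ library. Its most abundant gene there was Csf1r at 342 ± 14.7 (13.3 ± 4.76 in LN CD103+ DCs), and Ccr2 was at 125 ± 28.6 against 9.99 ± 4.16. The part of these lists in the Socs3 difference was not tested.

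Against the mean of the 4 DC subtypes, monocytes had more Socs3, Stat5b and Stat6, less Stat4 and Socs1 and almost no Socs2. Before the sort, monocytes were enriched with CD11b beads and DCs with CD11c beads, and only the monocyte libraries were summed from 2 runs. Cell type, enrichment and runs therefore cannot be told apart here. In this comparison 8 of the 9 genes were called, 4 higher and 4 lower, where 52.9% of all genes were called. Socs3 was higher by a log2 value of 2.75 ± 0.23 (167 ± 21.5 CPM, adjusted p = 9.36e-09), Stat6 by 0.82 ± 0.15 (519 ± 23, 0.000120), Stat5b by 0.78 ± 0.19 (323 ± 11.4, 0.00171) and Stat3 by 0.42 ± 0.14 (553 ± 69.0, 0.0201). All 3 monocyte libraries exceeded every DC library for Stat6, whereas Socs3 overlapped LN CD11b+ DCs, Stat5b splenic CD4+ DCs and Stat3 LN CD11b+ DCs. For Stat3 all 3 LN CD103+ libraries lay above every monocyte library, a called difference in the other direction (0.0218), so its value too is from the mean over DCs. Stat5b was called against splenic CD8+ DCs (8.78e-05) but not against splenic CD4+ (0.108), LN CD103+ (0.0799) or LN CD11b+ DCs (0.0575), and Socs1 not against splenic CD4+ DCs (0.525). The Stat3 call ended without monocyte replicate 2 (0.31, 0.154). Stat4 differed by -3.65 ± 0.47 (5.18 ± 2.12, 2.71e-06), Socs1 by -1.97 ± 0.36 (1.87 ± 1.06, 0.000139) and Stat5a by -0.72 ± 0.18 (109.9 ± 3.79, 0.00242), and Cish by 0.07 ± 0.51 (0.939). Stat5a in monocytes lay within the splenic CD4+ DC range, so its difference is from the mean over DCs that includes the LN subtypes. The neutrophil list of 11 genes, with S100a8 and S100a9, which monocytes also express, summed to 356 ± 85.7 CPM in monocytes and to 2.61 ± 2.81 or less in the DC subtypes. In monocytes Ngp was highest by the mean at 99.3 ± 30.6, with Mmp8 at 96.1 ± 18.3, S100a8 at 41.9 and S100a9 at 37.9. Mmp8 led in replicates 1 and 2 (86.9 and 84.3) and Ngp in replicate 3 (135). The sort had discarded cells stained for Ly6G, and Ly6g was at 0.219 ± 0.200. The part of neutrophil genes in the monocyte values was not tested.

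**Figure D3:**
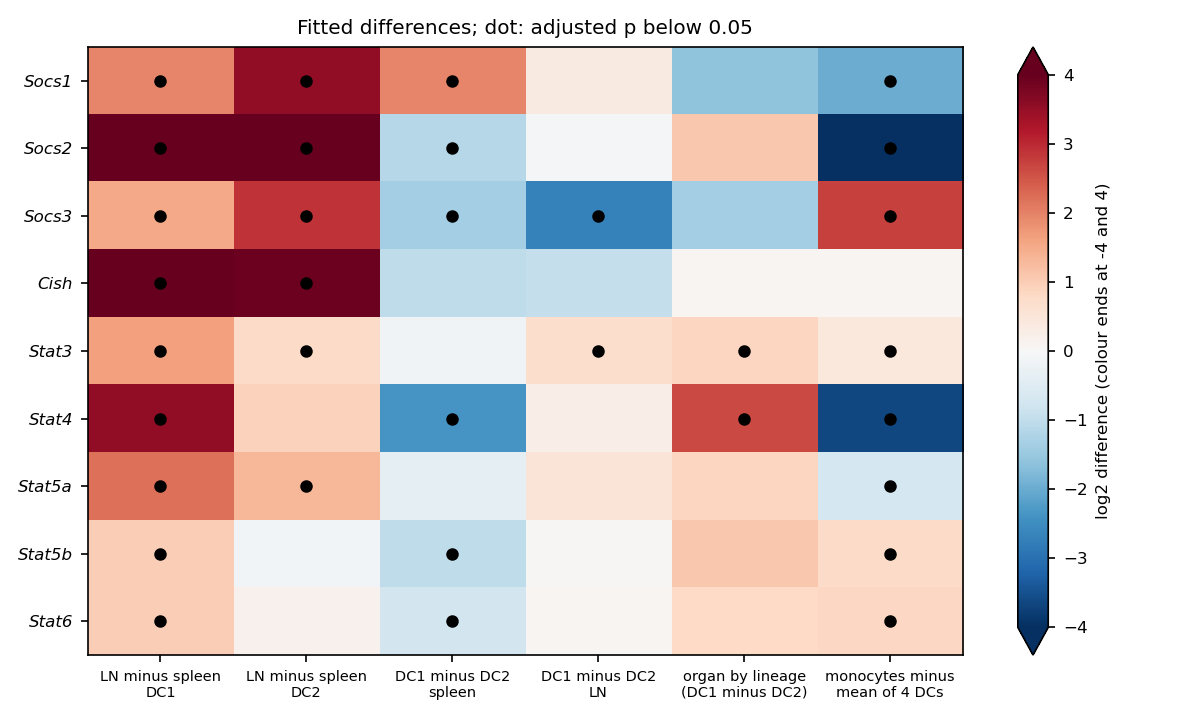
Log2 differences of the 9 genes (down) in 6 comparisons (across) on a colour scale, with a dot where the adjusted p is under 0.05. The LN minus spleen column of DC1 is dotted for 9 genes and that of DC2 for 6, and Socs2 in monocytes had 2 counts, so its fitted value is no measure of size.

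By TPM (counts divided by exon length, then scaled to the same sum in every library), the make-up of the SOCS family changed by subtype. The length is that of all annotated exons together, 9531 bases for Socs2, 6419 for Cish, 2891 for Socs3 and 1220 for Socs1. It need not be that of the transcript expressed, so comparisons between genes depend on this choice. The 8 SOCS genes summed to 462 ± 21.6 TPM in LN CD11b+ DCs, 340.5 ± 39.9 in LN CD103+ DCs, 208 ± 22.2 in monocytes, 66.7 ± 3.96 in splenic CD8+ DCs and 61.9 ± 10.3 in splenic CD4+ DCs. Socs2 made up 71.4% ± 9.94 of this sum in LN CD103+ DCs and 57.7% ± 18.1 in LN CD11b+ DCs, but 5.65% ± 0.597 and 13.4% ± 4.42 in splenic CD8+ and CD4+ DCs. Socs3 made up 71.5% ± 3.84 in monocytes. In splenic CD8+ DCs the most abundant SOCS gene by mean TPM was Socs5 (15.9 ± 1.19), and in both LN subtypes Socs2 (246 ± 60.1 and 266 ± 84.5). In splenic CD4+ DCs it was Socs3 (16.1 ± 7.93, beside Socs5 at 12.9 ± 1.39), but by libraries Socs3 was 9.29, 14.2 and 24.8 and Socs5 11.6, 12.6 and 14.4, so the order rests on replicate 3. Nor did the other orders hold in every library: in splenic CD8+ replicate 3 Socs1 (14.9) exceeded Socs5 (14.5), and in LN CD11b+ replicate 3 Socs3 (199) exceeded Socs2 (176).

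**Figure D4:**
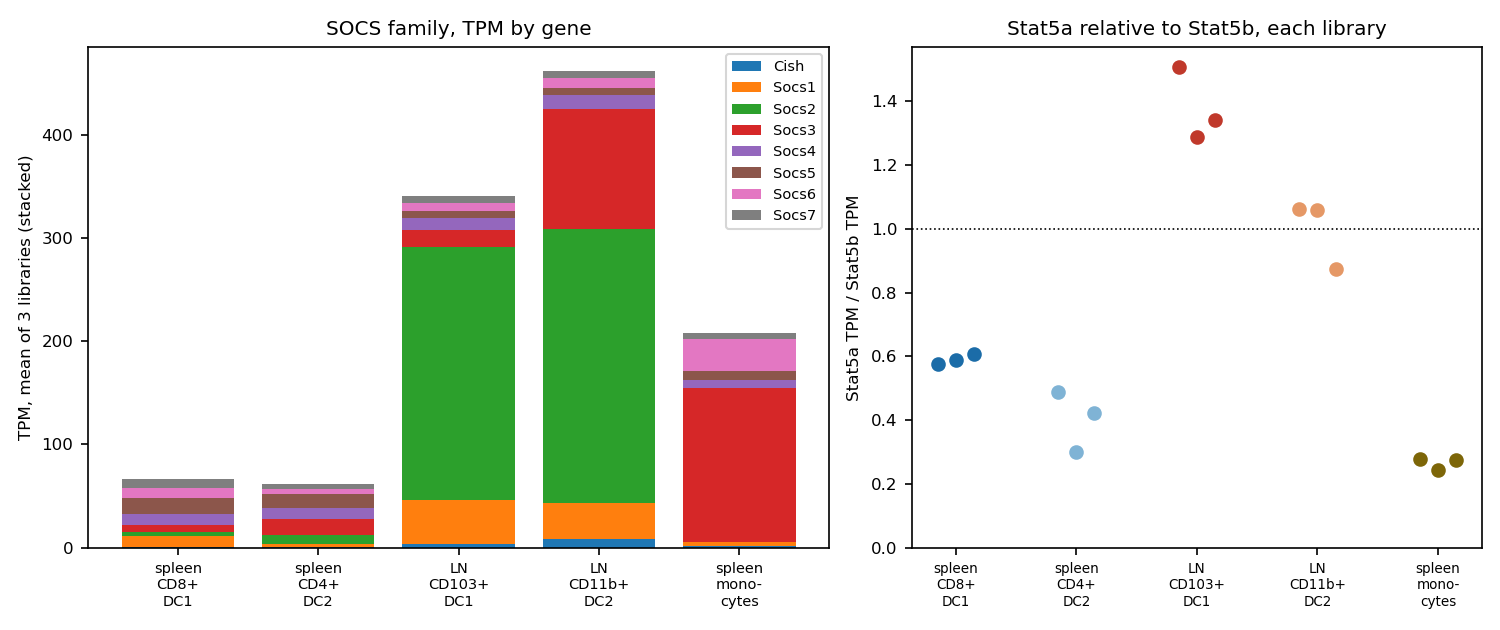
Mean TPM of the 8 SOCS genes stacked by subtype, and the ratio of Stat5a to Stat5b TPM in each library. The stack is taller in the LN subtypes through Socs2 and in monocytes through Socs3, and the ratio lies above 1 in all LN CD103+ libraries.

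The balance of the STAT5 pair differed between organs. The ratio of Stat5a to Stat5b TPM was 1.51, 1.29 and 1.34 in the LN CD103+ libraries and 1.06, 1.06 and 0.875 in the LN CD11b+ libraries. It was 0.576, 0.587 and 0.608 in splenic CD8+ DCs, 0.488, 0.300 and 0.422 in splenic CD4+ DCs and 0.277, 0.244 and 0.274 in monocytes. Every LN library had a higher ratio than every splenic DC library, and each monocyte library a lower one than every DC library.

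Of the other SOCS genes and Stat2, only Socs6 in DC2 was called higher in the LN. Of Socs4 to Socs7, 0 of 4 rose in LN DC1, where 23.8% of all genes did, and 1 fell, Socs5 (29.0 to 12 CPM, log2 -1.28, adjusted p = 0.00151). In LN DC2 Socs6 rose (16.7 to 34.7 CPM, log2 1.05, 0.000848) and Socs5 fell (22.8 to 11.9, -0.96, 0.0180), a call lost without splenic CD4+ replicate 2 (0.0501) or LN CD11b+ replicate 1 (0.0993) or 2 (0.0577). None of these ranges overlapped between the organs. Socs6, which restrains receptor tyrosine kinases, was highest in monocytes at 98.9 CPM (log2 1.85 against DCs, 3.74e-09). Stat2 was 191, 188 and 345 CPM in splenic CD4+ replicates 1, 2 and 3 and was lower in LN DC2 (-0.93, 0.00369), while DC1 showed 0.08 (0.790). Its highest splenic CD4+ value was thus in the library with the highest Socs3 and Stat3 of that subtype.

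The JAK kinases, which act just above the STATs, rose in LN DC1, 4 of 4 tested, where 23.8% of all genes rose. Tyk2 went from 228 to 604.5 CPM (log2 1.40, adjusted p = 3.22e-05), Jak3 from 53.6 to 119 (1.16, 0.00133), Jak2 from 665 to 1479 (1.15, 0.00148) and Jak1 from 197 to 349 (0.83, 0.000949), each with all 3 LN libraries above all 3 splenic ones. In LN DC2, where 19.3% of all genes rose, 2 of 4 did, Tyk2 from 82.2 to 344 (2.07, 9.83e-07) and Jak1 from 232 to 326 (0.49, 0.0424). The Jak1 call in DC2 was lost without any 1 of 10 libraries, splenic CD8+ replicates 1 and 2, splenic CD4+ replicates 1 and 2, LN CD103+ replicates 1 and 2, LN CD11b+ replicate 3 and each monocyte library (0.0503 to 0.192). Jak2 was low in monocytes, at 170.1 CPM (log2 -2.67 against DCs, 4.25e-08).

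Many ligands and receptor chains that work through these kinases differed by organ as well. Of 19 listed ligands, 8 had enough counts to test, and 7 were higher in LN DC1 and 5 in LN DC2. Il7 passed the filter through the LN libraries alone, as did the receptor genes Il2ra, Il12rb1 and Il23r, and Lif had 0 counts in splenic CD4+ DCs, so in these a fall could hardly be called and the counts are in part set by the filter. Over all genes 45.6% were called in DC1, 23.8% as higher, and 33.1% in DC2, 19.3% as higher, which the counts of this and the next lists stand beside. The largest called ligand differences were in genes of low level, Il7 (0.0831 to 9.33 CPM, log2 6.56, adjusted p = 4.32e-06) and Osm (0.417 to 8.66, 4.35, 2.72e-07) in DC1, and in DC2 Lif (0 to 8.76, 6.35e-07) and Il7 (0.209 to 8.53, 5.27, 3.75e-05). Il15 rose from 36.2 to 464 CPM in DC1 (adjusted p = 1.58e-09) and from 22.8 to 309 in DC2 (4.03e-09), and its receptor chain Il15ra, which presents IL-15 to other cells, from 15.5 to 516 (1.29e-10) and from 16 to 289 (1.37e-09). Il12b, the shared chain of IL-12 and IL-23, rose from 45.7 to 471 in DC1 (7.12e-06) and from 10.8 to 62.4 in DC2 (0.000259). Of the 33 receptor chains, 27 were tested: 16 rose and 5 fell in LN DC1, and 12 rose and 6 fell in LN DC2, with medians of 0.99 and 0.49. Il2ra, the high-affinity IL-2 receptor chain, went from 0.688 to 86.0 in DC1 (1.31e-09) and from 0.270 to 181 in DC2 (1.25e-09). Csf2rb, the shared signalling chain for GM-CSF, IL-3 and IL-5, rose from 140.2 to 743 (log2 2.41, 4.47e-07) and from 169.5 to 549 (1.70, 3.86e-05). Ifngr1 fell from 623 to 51.5 in DC1 (-3.60, 2.82e-10) and from 434 to 141 in DC2 (-1.62, 2.61e-06), and Il6ra from 77.5 to 10.8 (-2.85, 4.12e-09) and from 213 to 59.5 (-1.84, 7.64e-07). For each ligand and receptor named here the LN and splenic ranges did not overlap. Il15, Il15ra, Il12b and Csf2rb, Il6ra in DC1 and Ifngr1 in DC2 were singled out after their values were seen.

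Of the 26 listed STAT target genes, 18 rose and 2 fell in LN DC1, and 16 rose and 1 fell in LN DC2, with median log2 differences of 1.68 and 1.39. Among these, Ccl17 and Retnla passed the filter through the LN alone and Lrg1 through the spleen alone. Ccl22, a chemokine induced by STAT6 and other factors, rose from 10.1 to 1299 CPM in DC1 (adjusted p = 9.42e-09) and from 1.49 to 656 in DC2 (1.06e-08). Bcl2l1, a survival gene known as a STAT5 and STAT3 target and singled out, as was Ccl22 in DC2, after its values were seen, rose from 8.31 to 168 (log2 4.33, 5.91e-08) and from 8.26 to 68.5 (3.03, 6.85e-06). The 11 phosphatases and other inhibitors outside the SOCS family were mixed: 4 rose and 3 fell in LN DC1, and 2 rose and 4 fell in LN DC2. Pias3, an inhibitor of STAT3, had the largest rise, from 16.5 to 211 in DC1 (3.68, 3.06e-10) and from 32.0 to 152 in DC2 (2.25, 1.04e-07), and like Ccl22 and Bcl2l1 it did not overlap between the organs.

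**Figure D5:**
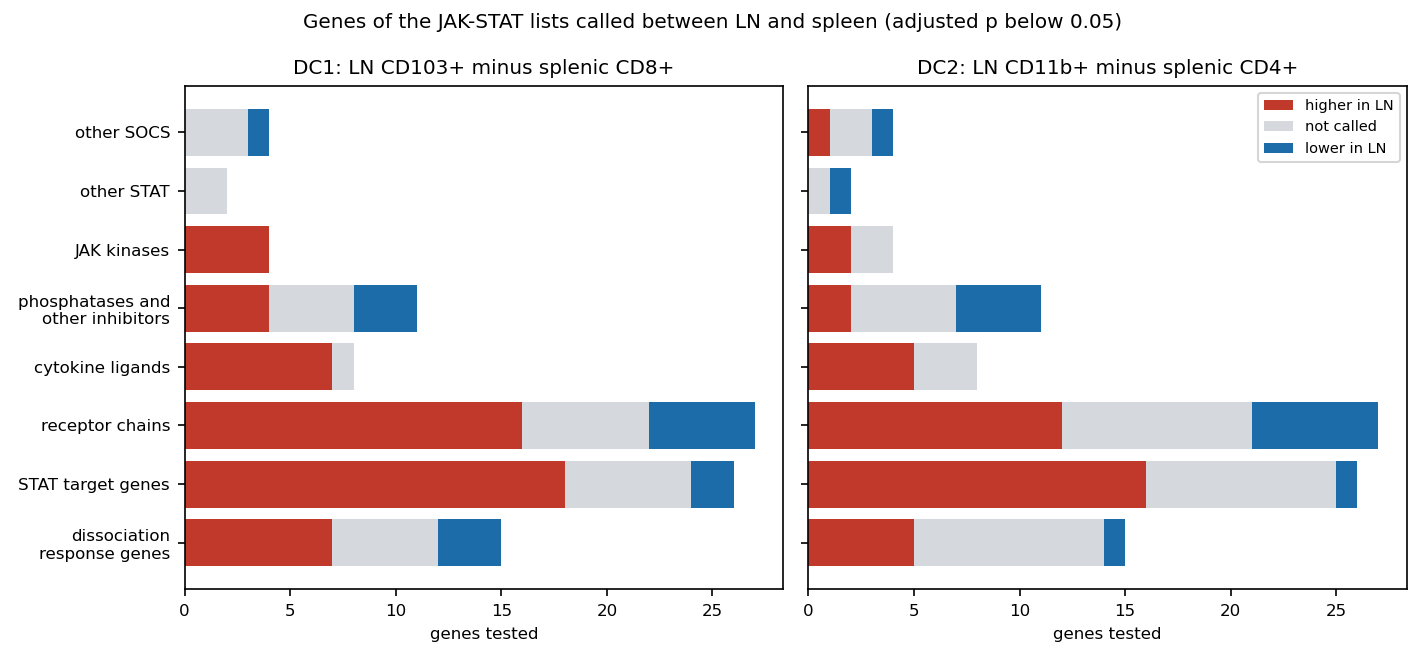
Number of tested genes of each pathway list called higher, called lower or not called in LN against spleen, for DC1 and DC2. The inhibitors are mixed in both lineages, and genes that passed the filter through the LN alone could hardly be called lower.

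Other lists moved with the LN libraries too. That of LN migratory DC genes, with Ccr7, summed to 19300 ± 1112 CPM in LN CD103+ and 11023 ± 1462 in LN CD11b+ DCs. In splenic CD8+ and CD4+ DCs it summed to 884 ± 183 and 1700 ± 415. T cell genes summed to 180.0 ± 34.2 CPM in LN CD103+ DCs and 129 ± 28.5 in LN CD11b+ DCs, against 11.1 ± 8.69 and 24.4 ± 7.11 in splenic CD8+ and CD4+ DCs, with counts for 11 of 11 genes in all 6 LN libraries. The most abundant by CPM was Lck, at 49.2 ± 6.94 and 39.4 ± 6.43 in the LN subtypes, and of the CD3 genes Cd3g was at 20.6 ± 3.15 and 12.6 ± 2.51, Cd3d at 9.95 ± 5.09 and 8.37 ± 4.77 and Cd3e at 7.63 ± 4.42 and 3.30 ± 1.14. In the sort, cells stained for CD3, B220 or NK1.1, proteins of T, B and NK cells, had been discarded. The B cell list was 281 CPM in LN CD103+ replicate 1, against 19.5 and 31.5 in the other LN CD103+ libraries, and without that library 9 of 9 genes were again called in DC1. NK cell genes summed to 13.5 ± 2.05 and 11.4 ± 10 in the LN subtypes and to 2.33 ± 1.66 or less elsewhere. Of 15 genes induced by cell dissociation, 7 were higher and 3 lower in LN DC1, where 45.6% of all genes were called, and 5 were higher and 1 lower in LN DC2, where 33.1% were. Among them Hspa1a rose from 446 to 3917 in DC1 and from 531 to 3047 in DC2, while Nr4a1 fell from 400 to 132 and from 972 to 217 and Egr1 from 153 to 36.3 in DC1. The part of these lists in the organ differences of the 9 genes was not tested.

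The genes most like each member were taken by the correlation of log2 CPM over the 15 libraries, among 10146 genes with enough counts. These correlations describe libraries that share subtypes and carry no p. Socs2 was nearest to Akap2 (r = 0.991, n = 15), Pakap (0.990), an overlapping gene model, and Clic4 (0.990). Akap2 averaged 905 CPM in LN CD103+ and 499.5 in LN CD11b+ DCs, 20.1 and 19.8 in the splenic DCs and 0 in monocytes. Socs1 was nearest to Creld1 (0.978), Sepsecs (0.969) and Cttnbp2nl (0.962), and Cish to Dnajc5 (0.936), the death receptor gene Fas (0.917) and Azin2 (0.912). Socs3 was nearest to Dock1 (0.961), Peli2 (0.941) and Siglec1 (0.937), a sialic acid receptor of macrophages. Stat5a was nearest to Anxa4 (0.993), Rnf19b (0.986) and Mvp (0.986), all highest in LN CD103+ DCs. Stat3 followed Plcl2 (0.959), Myof (0.957) and Plekhg1 (0.95), and Stat4 followed Aebp2 (0.963), Clstn1 (0.962) and Kcnk6 (0.962). Stat5b was nearest to Lfng (0.934), Rap1b (0.927) and Wdr45b (0.927), and Stat6 to the interferon-induced Ifi209 (0.968), Stxbp2 (0.95) and Sptlc2 (0.947).

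Among the members themselves, 2 groups stood out over the 15 libraries, with Cish and Stat3 tied to both. Socs2 correlated with Stat4 (r = 0.876), Socs1 (0.819) and Stat5a (0.791), all high in LN DCs. Socs3 correlated with Stat6 (0.820) and Stat5b (0.645), all high in monocytes, and Stat5b with Stat6 (0.804). Between these groups the values ran from -0.213 (Socs2 with Stat6) to 0.320 (Stat5a with Stat5b). Cish correlated with Stat5a (0.744) and Socs3 (0.631), and Stat3 with Stat5a (0.728) and Stat6 (0.692).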

How the data were processed

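RNA of the 15 libraries was measured on an Ion Torrent sequencer. For the deposited counts, the authors dropped reads under 30 nt, mapped the rest to mm10 with STAR 2.4.0j and counted unique reads per Ensembl gene with featureCounts (Subread 1.5.2), unstranded, a read over several genes counting for each. The deposited TPM were computed by the authors from the same counts and exon lengths. The exon lengths of another deposited column (a length in bases, unit "other") were used for overlaps. Summed runs equalled the deposited counts in 15 of 15 libraries.

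Genes above 1 CPM in at least 3 libraries (14456) were fitted in edgeR 4.0.16 (R 4.3.3) with TMM scaling and a mean per subtype, quasi-likelihood tests and Benjamini-Hochberg adjustment over all 14456 genes, with a threshold of 0.05. Alternatives were RLE scaling, DESeq2 1.42.0, other filters, limma 3.58.1 on log2(TPM + 1) and log2(TPM + 0.1), each library left out, a replicate block, separate blocks by organ and fits of 2 subtypes. The code was tested on simulated data. Residuals of same-numbered libraries correlated at 0.162, 0.339 and 0.375 between the splenic DC subtypes and at 0.222, 0.179 and 0.259 between the LN subtypes. Across the organs they also correlated, at 0.197, 0.243 and 0.266 for splenic CD4+ with LN CD11b+ DCs, 0.117, 0.124 and 0.146 for splenic CD4+ with LN CD103+ DCs, 0.0163, 0.182 and 0.118 for splenic CD8+ with LN CD11b+ DCs and 0.0374, 0.0860 and 0.0689 for splenic CD8+ with LN CD103+ DCs, so the pairing is not confined to an organ.

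Named genes were all 9 members, the 3 genes most like each, and from each list the 2 with the largest called differences in each direction, with JAK kinases, Socs4 to Socs7 and Stat2 in full. The text describes only some of these and, for LN minus spleen outside that rule, Il15, Il15ra, Il12b, Csf2rb and Bcl2l1, with Il6ra in DC1 and Ifngr1 and Ccl22 in DC2, a choice settled after their values were seen. The members and lists were chosen with earlier results of these data known. Symbols came from GENCODE vM21 for 37607 of 38924 identifiers. Some further genes of the plan are not reported here.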

Additional observations from a re-analysis of the deposited data

Results flagged for a closer look

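For 17 named genes the LN minus spleen difference in DC1 differed from that in DC2 by the test of the interaction, at an adjusted p under 0.05. Values are log2 differences of the differences, positive where LN minus spleen was larger in DC1. Over all genes 11.2% were called. Outside the 9 members, the JAK kinases, Socs4 to Socs7 and Stat2, genes were named because theirs were the largest called differences of a list, so the 17 are no share to set against that. By list, those called higher and lower were 5 and 2 of 27 receptor chains tested, 5 and 0 of 26 STAT targets, 1 and 2 of 15 dissociation genes, 2 and 0 of 11 inhibitors, 1 and 1 of 8 ligands, 1 and 0 of 4 JAK kinases and 0 and 1 of 4 other SOCS genes. Of the 9 genes, these were Stat4 at 2.63 (adjusted p = 0.0102) and Stat3 at 0.85 (0.0444).

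Among kinases, STATs and inhibitors, Jak2 was at 1.22 (0.0396), Stat2 at 1.01 (0.0471), Socs6 at -1.10 (0.0216), the phosphatase gene Ptpn6 at 1.72 (0.00120) and Pias3 at 1.42 (0.00227). Among receptors, Il21r was at 3.84 (8.12e-06), Il27ra at 2.4 (0.0106), Ifngr1 at -1.97 (8.68e-05) and Il6ra at -1.01 (0.0221). The cell cycle gene Ccnd2 was at 3.47 (0.000372) and the cytokine gene Osm at 2.16 (0.0223). Lif was at -5.17 (0.0129), but it had 0 counts in splenic CD4+ DCs, so this value depends on the prior count and is no measure of size. Of the dissociation genes, Zfp36 was at 1.19 (0.0228), Egr1 at -1.62 (0.0276) and Ier2 at -1.44 (0.0222).

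Some of these calls were lost with 1 library left out. That of Jak2 was lost without splenic CD8+ replicate 1 (0.0600) or 3 (0.0987), splenic CD4+ replicate 1 (0.0519) or 2 (0.0999), LN CD103+ replicate 2 (0.123), LN CD11b+ replicate 1 (0.0815) or 3 (0.0835) or any monocyte library (0.0525 to 0.0545). That of Stat2 was lost without splenic CD8+ replicate 1 (0.0769) or 2 (0.110), splenic CD4+ replicate 3 (0.110), LN CD11b+ replicate 1 (0.0963) or 2 (0.0994), any LN CD103+ library (0.0734 to 0.0850) or any monocyte library (0.0516 to 0.0625). Zfp36 lost it without splenic CD8+ replicate 3 (0.0559), splenic CD4+ replicate 3 (0.0501), LN CD103+ replicate 2 (0.0517) or 3 (0.0683) or LN CD11b+ replicate 1 (0.0640) or 2 (0.0501). Socs6 lost it without splenic CD8+ replicate 3 (0.0598), LN CD103+ replicate 1 (0.0515) or 3 (0.0561) or LN CD11b+ replicate 1 (0.0605), and Il6ra without splenic CD8+ replicate 1 (0.0610), LN CD103+ replicate 2 (0.0737) or 3 (0.0570) or LN CD11b+ replicate 1 (0.0525). Osm lost it without splenic CD8+ replicate 3 (0.0836) or splenic CD4+ replicate 3 (0.0550), Egr1 without splenic CD8+ replicate 1 (0.0501) or LN CD11b+ replicate 3 (0.0700), and Ier2 without LN CD103+ replicate 2 (0.0706) or LN CD11b+ replicate 3 (0.0610). Stat3 is described with its organ differences. The causes were not tested.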

How the results depend on the processing

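Of the 54 tests of a gene in a comparison, 33 were called, and 28 of these held in every alternative setting run for them, 24 for differences between 2 subtypes and 23 for the interaction and monocytes. Over the called tests, 757 of 782 alternative values stayed called, 25 did not, and 0 changed direction. The number of the 9 genes called changed by more than 1.5-fold for LN DC1 against DC2, from 2 to 1 in both limma fits, and for the interaction, from 2 to 5 with DESeq2, 4 with no filter, 7 with a replicate block and 8 with separate blocks by organ. Smaller changes were from 2 to 3 between the LN lineages with either block, 2 to 3 for the interaction with RLE scaling and both limma fits, 6 to 7 for LN minus spleen in DC2 with no filter and in the fit of 2 subtypes, 6 to 7 between the splenic lineages with separate blocks and 15 to between 13 and 18 for neighbours. With 1 library left out these numbers ran from 9 to 9 and from 6 to 7 for LN minus spleen in DC1 and DC2, 5 to 6 for the splenic and 1 to 2 for the LN lineages, 1 to 4 for the interaction, 7 to 8 for monocytes, 9 to 9 over subtypes and 12 to 16 for neighbours. Over all genes, with the same bound, the splenic lineages gave 2600 calls in place of 3966 in a fit of these subtypes alone, and separate blocks gave 3304 in place of 1872 for the LN lineages and 3142 in place of 1620 for the interaction. The ranges without 1 library were 5584 to 6956, 3956 to 4850, 2788 to 4075, 1216 to 2171, 1118 to 1808, 6162 to 7841 and 9740 to 10785, in the order above. For LN minus spleen, these list counts moved by 1.5-fold or more over the settings, given with their ranges. In DC2 they were dissociation genes higher (5, 3 to 9) and inhibitors higher (2, 1 to 4) and lower (4, 3 to 6). Also in DC2 were STAT targets lower (1, 0 to 3), JAK kinases higher (2, 1 to 2) and other SOCS genes lower (1, 0 to 1). In DC1 they were dissociation genes lower (3, 3 to 5), inhibitors lower (3, 2 to 3) and STAT targets lower (2, 1 to 3). Counts of other comparisons moved as much, and only some are given. Between the LN lineages STAT targets ran from 1 to 8 higher and 1 to 6 lower, and dissociation genes from 2 to 8 lower. Between the splenic lineages STAT targets ran from 2 to 5 higher and inhibitors from 4 to 6 lower. Receptor chains higher and lower ran from 0 to 3 and 7 to 11 between the splenic and from 0 to 3 and 3 to 8 between the LN lineages. In the interaction they ran from 4 to 9 and 1 to 4, STAT targets from 4 to 8 and 0 to 3, dissociation genes from 0 to 2 and 0 to 4, ligands from 0 to 4 and 0 to 1, inhibitors from 2 to 4 and 0 to 0, JAK kinases from 0 to 2 and 0 to 1 and other SOCS genes from 0 to 0 and 0 to 1. Values of the members that changed direction were all uncalled. In the limma fits with 1 and 0.1 added these were Cish in the interaction (-0.57 and -0.10), Stat5b between the LN lineages (-0.0185 and -0.0187) and, with 1 added, Cish in monocytes (-0.11). Without 1 library, ranges crossed 0 for Socs2 (-0.30 to 0.24), Stat5b (-0.0855 to 0.237) and Stat6 (-0.0472 to 0.294) between the LN lineages, Stat3 between the splenic lineages (-0.256 to 0.0688), Stat5b (-0.27 to 0.32) and Stat6 (-0.0412 to 0.299) by organ in DC2, and Cish in the interaction (-0.70 to 1.73) and in monocytes (-0.0729 to 0.487). The causes were not tested. Depth limits Cish in splenic DCs, Socs1 in splenic DCs and monocytes and Socs2 in monocytes, where single libraries held few counts.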

Other observations

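Receptor chains separated monocytes from DCs in both directions, 13 of 27 tested higher and 10 lower, where 52.9% of all genes were called. Csf3r, the G-CSF receptor gene, averaged 385 CPM in monocytes and 22.8 or less in the DC subtypes (log2 6.40, adjusted p = 7.41e-12), and Il6ra averaged 457 (3.00, 9.53e-13). Both receptors act through STAT3 and are restrained by SOCS3. Il7r was at 0.0972 CPM in monocytes, against 220.5 in LN CD103+ and 188 in LN CD11b+ DCs. Of the ligands, Osm was at 85.1 in monocytes and 16.2 or less in the DC subtypes (4.48, 4.03e-12). For Csf3r, Il6ra and Osm all 3 monocyte libraries exceeded every DC library.

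Between the splenic lineages, 8 of 27 receptor chains were lower in CD8+ DCs and 1 was higher, where 27.4% of all genes were called. Csf3r was at 1.27 CPM in CD8+ and 22.8 in CD4+ DCs (log2 -4.18, adjusted p = 3.00e-05), and Il27ra at 0.857 and 8.46 (-3.27, 2.93e-05). Between the LN lineages 4 were lower in CD103+ DCs and 2 higher (12.9% of all genes called), with Csf3r at 0.695 and 22.3 (-5.07, 2.83e-05). Of the inhibitors, Ptpn6, the phosphatase SHP-1, was at 345 in splenic CD8+ and 1238 in splenic CD4+ DCs (-1.84, 6.37e-06), and at 441 and 481 in LN CD103+ and CD11b+ DCs (-0.13, 0.785). The splenic ranges of Csf3r, Il27ra and Ptpn6 did not overlap.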
